A study of Mus musculus with 4 samples.

Results

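Immediate early genes are the genes that a cell transcribes first after a stimulus, without first making new protein. In neurons they are switched on by synaptic activity and calcium entry, through kinases that act on the transcription factors CREB and SRF, and their products are other transcription factors, synaptic regulators and feedback inhibitors of the kinases. The set described here holds 10 such genes, chosen by name: the zinc finger factors Egr1, Egr3 and Egr4, the neuronal factor Npas4, the orphan nuclear receptors Nr4a1 and Nr4a3, the synaptic genes Arc and Homer1, and the feedback and growth-factor response genes Dusp1 and Ier2. All 10 were measured, each by 1 probe set annotated with that symbol alone, among 19938 genes in all.

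The values come from whole brains of C57BL/6J mouse fetuses at embryonic day 16. In the ethanol group the pregnant females were injected with ethanol at 2.5 g per kg in saline, and in the control group with an equal volume of saline, with injections on gestational days 14 and 16 in both. How long after the last injection the brains were taken, which matters for genes of this kind, is not stated in the labels. Each array carried RNA pooled from 3 mice, and 2 ethanol pools and 2 control pools (12 mice) were hybridised to Affymetrix whole-transcript arrays. The comparison asks whether these transcripts differed in the fetal brain after acute exposure to ethanol.

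Each value is the log2 brightness of a probe set on an array. The median over all probe sets lay between 8.01 and 8.04 on the 4 arrays, the lower quartile between 6.45 and 6.55 and the upper quartile between 9.76 and 9.81. The list of 10 neuron markers, among them Tubb3, Map2 and Snap25, had medians of 12.6 and 12.5 in the ethanol pools and 12.4 and 12.5 in the control pools, all above the upper quartile. The pools differed in genes of other tissues, with control 1 and, less far, ethanol 2 above the other pools: over 12 skeletal muscle genes the median was 7.44 and 8.09 in ethanol 1 and ethanol 2, against 9.80 and 7.46 in control 1 and control 2. The pools also differed in sex-linked genes. Xist, which female cells make from the X chromosome that they silence, had values of 12.0 and 12.8 in the ethanol pools, against 6.10 in control 1 and 12.8 in control 2. Eif2s3y stood at 11.2 and 10.0 in ethanol pools, against 11.6 and 9.98 in control pools, and Kdm5d and Uty were likewise highest in control 1. The part of fetal sex in the differences of the 10 genes was not tested. Over 8 meningeal and pericyte markers the median was 9.17 and 10.1 in ethanol 1 and ethanol 2, against 10.4 and 9.18 in control 1 and control 2. The differences of the 10 genes and the medians of the lists are therefore also given without control 1 and without ethanol 2. In RNA of whole brains, fewer cells that use a gene and less of its RNA per cell cannot be told apart. Probe sets differ in how brightly they bind, so levels are compared between arrays for each gene and not between genes.

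The promoters of 6 of the 10 genes were searched for the binding sequence of CREB. The genes were chosen by name and not by sequence, but they belong to a class that CREB acts on. Such sequences are therefore not a feature independent of the choice. A complete cAMP response element (CRE) reads TGACGTCA, and its half-site reads TGACG, or CGTCA when it lies on the opposite strand. RefSeq promoter windows of build GRCm38.p6, from 250 bases before to 50 bases after a transcript start, were used for 6 of the 10 genes. These were 7 windows, since Homer1 has 2 starts. No window was used for Egr1, Egr3, Arc or Ier2, because none matched or because of the exclusion given with the processing. The stretches around the half-sites are printed 5′ to 3′ on the strand of the gene to show how the sites are spaced, with every half-site and the complete element in capitals.
Dusp1: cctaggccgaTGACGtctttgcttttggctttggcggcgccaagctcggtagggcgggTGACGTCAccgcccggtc
Homer1: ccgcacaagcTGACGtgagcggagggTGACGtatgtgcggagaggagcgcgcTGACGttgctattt
Nr4a3: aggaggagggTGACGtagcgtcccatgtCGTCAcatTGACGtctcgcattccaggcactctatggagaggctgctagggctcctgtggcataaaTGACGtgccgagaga
Nr4a1: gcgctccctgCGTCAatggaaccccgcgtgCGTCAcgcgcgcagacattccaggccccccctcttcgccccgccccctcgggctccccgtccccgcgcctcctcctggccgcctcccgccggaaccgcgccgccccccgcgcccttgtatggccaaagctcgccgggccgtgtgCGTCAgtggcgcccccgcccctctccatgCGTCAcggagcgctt
Npas4: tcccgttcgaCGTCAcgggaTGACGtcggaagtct
Egr4: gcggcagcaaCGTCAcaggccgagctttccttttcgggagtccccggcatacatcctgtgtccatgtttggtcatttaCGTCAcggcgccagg

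These stretches lie at chr17:26508598-26508673 (minus strand) for Dusp1, chr13:93303691-93303756 (plus) for Homer1, chr4:48045064-48045172 (plus) for Nr4a3, chr15:101266603-101266820 (plus) for Nr4a1, chr19:4990126-4990160 (minus) for Npas4 and chr6:85513684-85513776 (minus) for Egr4. All are upstream of the transcript start. All 6 genes had at least 2 half-sites in a window, Nr4a1 and Nr4a3 with 4 each, Homer1 and Dusp1 with 3 each, and Npas4 and Egr4 with 2 each. Dusp1 alone held a complete CRE, at position -143 from the start, and its palindrome accounts for 2 of the 3 half-sites of that gene. Over all 32851 windows of this length, 20.8% held a half-site, 5.0% held 2 or more and 1.79% held a complete CRE. The half-site contains a CG pair, and the 6 windows that held one were GC-rich, at 63.0% to 72.3% against a median of 52.7% over all windows. Among the 9690 windows with a GC content of at least 60%, 31.6% held a half-site and 9.3% held 2 or more. The second Homer1 window (GC 44.7%) held none. The CArG box, the SRF binding sequence, was searched only as CC, then 6 letters A or T, then GG. It was found in 0 of the 7 windows and in 1.63% of all windows. Runs that depart from these letters were not counted, and Egr1, Egr3, Arc and Ier2 were not searched. A match in these windows is a run of letters and not a measured binding site.

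**Figure D1:**
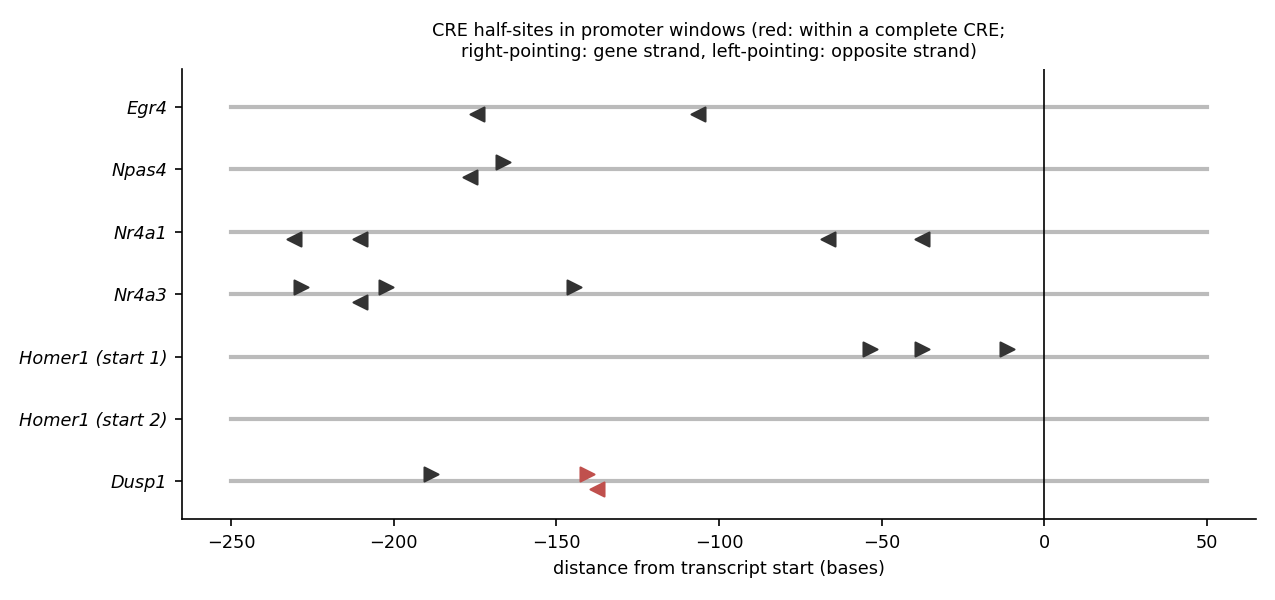
Positions of CRE half-sites in the 7 promoter windows of 6 immediate early genes; the x axis is the distance in bases from the transcript start (vertical line), each grey bar is a window, and the triangles point along the strand that reads TGACG. Red triangles are the half-sites within the complete CRE of Dusp1 at -143; the second Homer1 start has none.

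No gene of the 10 passed the test of ethanol against control brains over all genes. Dusp1 had the largest difference, higher in ethanol by 0.19 on the log2 scale, and the other 9 lay between -0.11 and 0.07. In the limma fit, with Benjamini-Hochberg adjustment over 19938 genes, 0 of the 10 passed an adjusted p under 0.05 (lowest adjusted p = 0.980), as did 0% of all genes. At an unadjusted p under 0.05 it was again 0 of 10, against 2.94% of all genes. The arrays' number limits this test: with 2 pools against 2, an exact permutation test of a single gene cannot go below p = 0.333. The 95% intervals of the 10 differences spanned folds of 0.811 to 1.34, so that, as far as these pools represent their groups, larger changes in brightness of a single gene lay outside its interval. Brightness of dim probe sets can understate a change in RNA. The labels do not say how litters were spread over the pools, so the intervals and p-values rest only on the spread between these pools. In the limma fit, the standard error (SE) of a gene also draws on the spread of all genes between pools. From a gene's own spread alone it was 0.02 for Egr3 and 0.11 for Dusp1, against 0.07 and 0.09 in the fit.

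**Figure D2:**
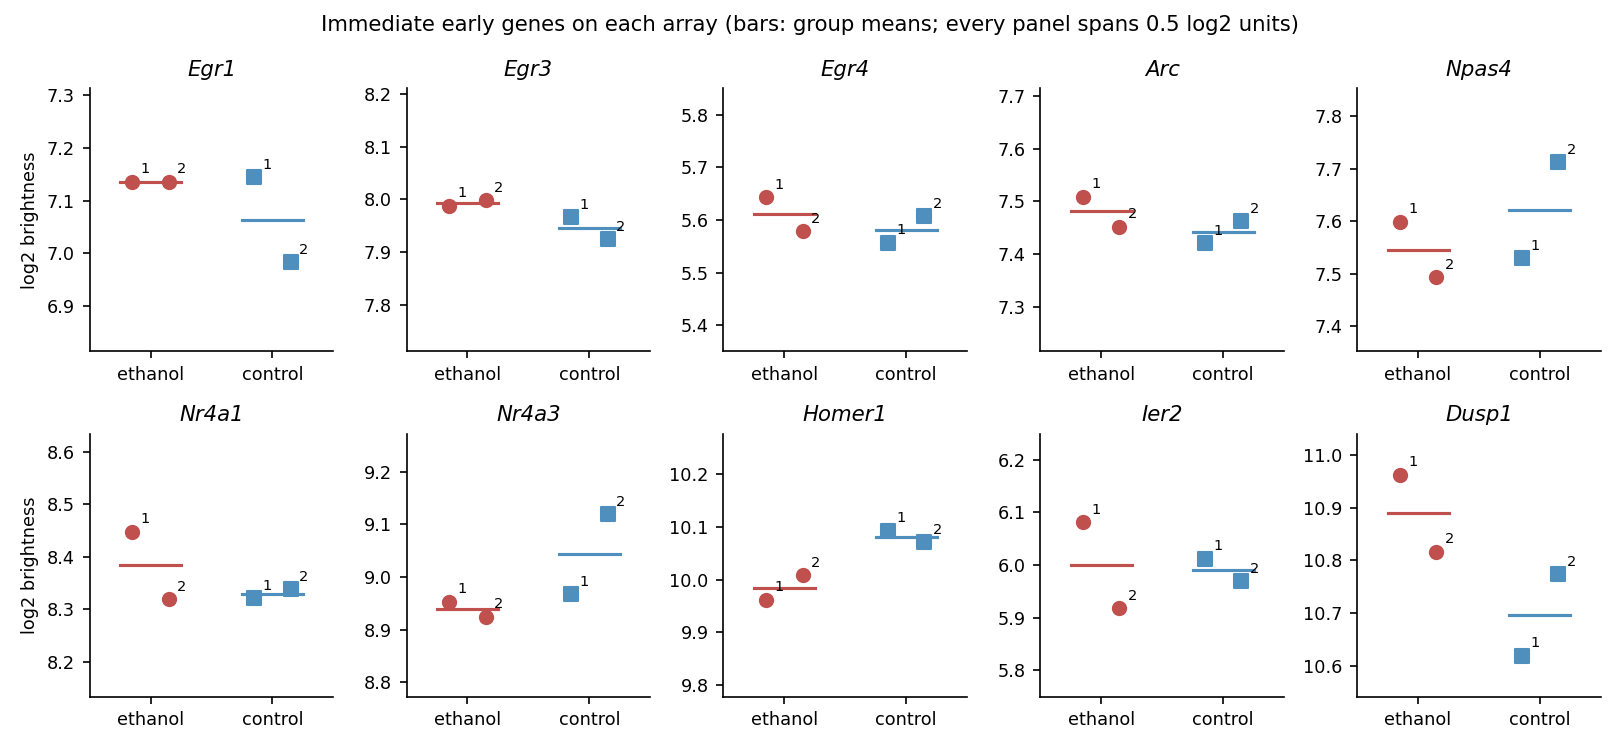
Log2 brightness of the 10 immediate early genes on each array, with ethanol pools (red circles) and control pools (blue squares) marked by replicate number, bars at the group means, and every panel spanning 0.5 log2 units. The groups do not overlap for Egr3 and Dusp1 (higher in ethanol) or for Nr4a3 and Homer1 (lower in ethanol), and overlap for the other 6.

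The EGR factors are zinc finger proteins that bind GC-rich sites and carry the first wave of transcription on to later target genes. Egr1, widely used as a marker of recently active neurons, stood at 7.14 and 7.14 in the ethanol pools, against 7.14 and 6.98 in the control pools. Control 2 was the low array and the other 3 were alike, and the difference was 0.07 ± 0.08 (log2, SE of the limma fit, 2 arrays per group). Egr3, needed for muscle spindle formation and for memory in mice, stood at 7.988 and 7.998 in ethanol pools, against 7.966 and 7.924 in control pools. Both ethanol arrays lay above both control arrays, by a margin of a few hundredths, and the difference was 0.05 ± 0.07. Egr4, needed for male fertility in mice, stood at 5.64 and 5.58 in ethanol pools, against 5.56 and 5.61 in control pools. The groups overlapped (difference 0.03 ± 0.07), and all 4 values lay below the lower quartile of their array, where a change is hardest to see. Egr2, the fourth EGR gene and a regulator of hindbrain segments and Schwann cells, is not among the 10. It stood at 6.81 and 6.68 in ethanol pools, against 6.58 and 6.65 in control pools, with a difference of 0.13 ± 0.08 (adjusted p = 0.980 in limma). The EGR corepressors Nab1 and Nab2 had differences of 0.02 ± 0.07 and -0.04 ± 0.13.

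Npas4 is a basic helix-loop-helix factor found mainly in neurons and induced by calcium entry. It stood at 7.60 and 7.49 in ethanol pools, against 7.53 and 7.71 in control pools. Ethanol 2 was the lowest array and control 2 the highest, the groups overlapped, and the difference was -0.07 ± 0.09. The gap between the 2 control pools, -0.18 for control 1 minus control 2, was the widest within-group gap of control pools among the 10 genes.

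The NR4A receptors are nuclear receptors that act without a known hormone and are controlled mainly by how much of them is made. Nr4a1 (Nur77) stood at 8.45 and 8.32 in ethanol pools, against 8.32 and 8.34 in control pools. Only ethanol 1 stood above the other 3 arrays, and the difference was 0.05 ± 0.08. Nr4a3 (NOR1) went the other way, at 8.95 and 8.92 in ethanol pools against 8.97 and 9.12 in control pools. Its groups did not overlap, and the difference of -0.11 ± 0.08 came to -0.03 without control 2 and to -0.18 without control 1. Nr4a2 (Nurr1), the third receptor and a factor that dopamine neurons need, is not among the 10. It stood at 11.14 and 10.97 in ethanol pools, against 10.886 and 10.995 in control pools, with a difference of 0.11 ± 0.09. No gene of this family passed the test.

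Arc and Homer1 act at synapses. Arc takes AMPA-type glutamate receptors off the synaptic membrane, and its RNA is carried into dendrites. It stood at 7.51 and 7.45 in ethanol pools, against 7.42 and 7.46 in control pools, with overlapping groups and a difference of 0.04 ± 0.07. Homer1 encodes long forms that tie metabotropic glutamate receptors to the postsynaptic scaffold and a short form, Homer1a, that activity induces and that loosens this tie. The platform annotation lists several transcripts for the probe set, and its single value does not separate the forms. Homer1 stood at 9.96 and 10.01 in ethanol pools, against 10.09 and 10.07 in control pools. Both ethanol arrays were lower than both control arrays, with narrow gaps within each group, and the difference was -0.10 ± 0.07. The related scaffold genes Homer2 and Homer3 had differences of 0.07 ± 0.08 and -0.03 ± 0.07.

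Dusp1 (MKP-1) encodes a phosphatase that switches off the MAP kinases p38, JNK and ERK, and growth factors, stress and glucocorticoids all induce it. It stood at 10.96 and 10.82 in ethanol pools, against 10.62 and 10.77 in control pools. Ethanol 1 was highest and control 1 lowest, and the gap between ethanol 2 and control 2 was the smallest between the groups. The difference was 0.19 ± 0.09, a fold of 1.14 with a 95% interval of 0.979 to 1.34 (unadjusted p = 0.0792, adjusted p = 0.980 in limma). A difference at least this large in either direction was seen in 6.40% of all genes. Without control 1 it was 0.12, and over the 4 fits that left out 1 array it ranged from 0.12 to 0.27. In control 1, where Dusp1 was lowest, the medians of the skeletal muscle genes and of the meningeal and pericyte markers were highest, as given. All 12 muscle genes, all 8 meningeal and pericyte markers and all 8 endothelial markers had differences below 0. The part of such cells in the Dusp1 difference was not tested. Ier2, a nuclear protein induced by growth factors, stood at 6.08 and 5.92 in ethanol pools, against 6.01 and 5.97 in control pools. Its ethanol values enclosed the control values, all 4 values were below the lower quartile of their array, and the difference was 0.01 ± 0.08.

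**Figure D3:**
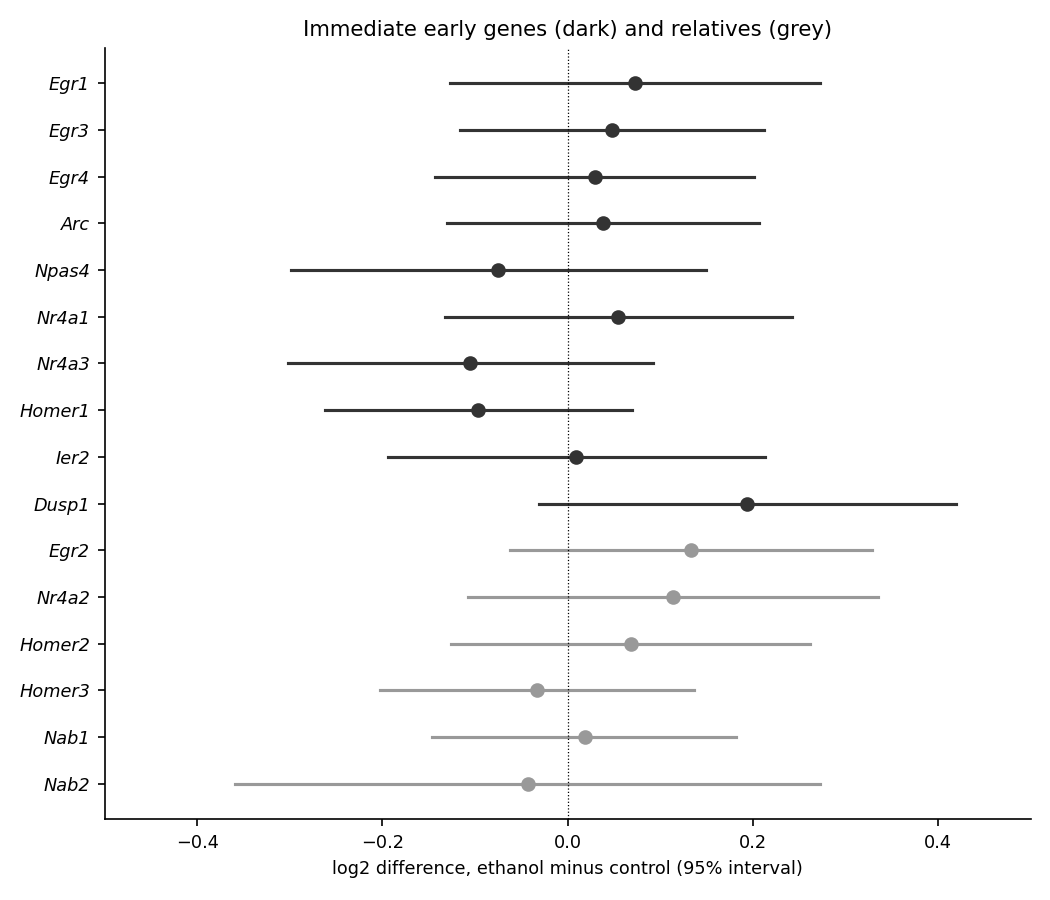
Log2 difference between ethanol and control means with its 95% interval from the limma fit, for the 10 immediate early genes (dark) and 6 related genes (grey). All intervals contain 0, and that of Dusp1 reaches from -0.03 to 0.42.

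Both ethanol arrays lay on 1 side of both control arrays for 4 of the 10 genes, higher for 2 and lower for 2, against 31.4% of all genes (17.4% higher and 14.0% lower). That is close to the background, and in opposite directions. Of the 10, 7 had a difference above 0, against 54.2% of all genes, and the median difference was 0.03, against 0.01 over all genes. Without control 1 the median was 0.02, with 7 of 10 above 0. Without ethanol 1 it was -0.01, with 4 of 10 above 0 (45.4% of all genes), so the count above 0 rested on ethanol 1. Egr3, Arc, Nr4a3, Homer1 and Dusp1 kept the sign of their difference whichever array was left out, and Egr1, Egr4, Npas4, Nr4a1 and Ier2 did not.

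Without control 1 the differences were 0.15 for Egr1, 0.07 for Egr3, 0.004 for Egr4, -0.17 for Npas4, 0.05 for Nr4a1, -0.18 for Nr4a3, 0.02 for Arc, -0.09 for Homer1, 0.12 for Dusp1 and 0.03 for Ier2. Those of Egr1, Npas4, Nr4a3 and Ier2 lay farther from 0 than with all arrays by over 1.5 times, and those of Egr4, Arc and Dusp1 came nearer to it by over 1.5 times. Without ethanol 2 they were 0.07 for Egr1, 0.04 for Egr3, 0.06 for Egr4, -0.02 for Npas4, 0.12 for Nr4a1, -0.09 for Nr4a3, 0.07 for Arc, -0.12 for Homer1, 0.27 for Dusp1 and 0.09 for Ier2, with a median of 0.06 and 7 of 10 above 0. In both fits all 10 differences kept their sign, and 0 of the 10 passed.

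For the 10 genes, the median absolute difference was 0.063 between ethanol and control means, 0.060 between the 2 ethanol pools and 0.046 between the 2 control pools. Over all genes these medians were 0.061, 0.091 and 0.079. A difference of means of 2 pools varies less than a difference of single pools, so these values are not on an equal footing. For 7 of the 10 genes the group difference was smaller than a gap within a group, against 81.0% of all genes, and the 3 exceptions were Egr3, Homer1 and Dusp1. Ethanol 1 was the highest array for 5 of the 10 (Egr4, Arc, Nr4a1, Ier2 and Dusp1), against 40.2% of all genes, and control 1 the lowest for 3 (Egr4, Arc and Dusp1), against 32.5%. The 10 genes thus did not share an order of the arrays: Npas4 and Nr4a3 were highest in control 2, where Egr1 and Egr3 were lowest.

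**Figure D4:**
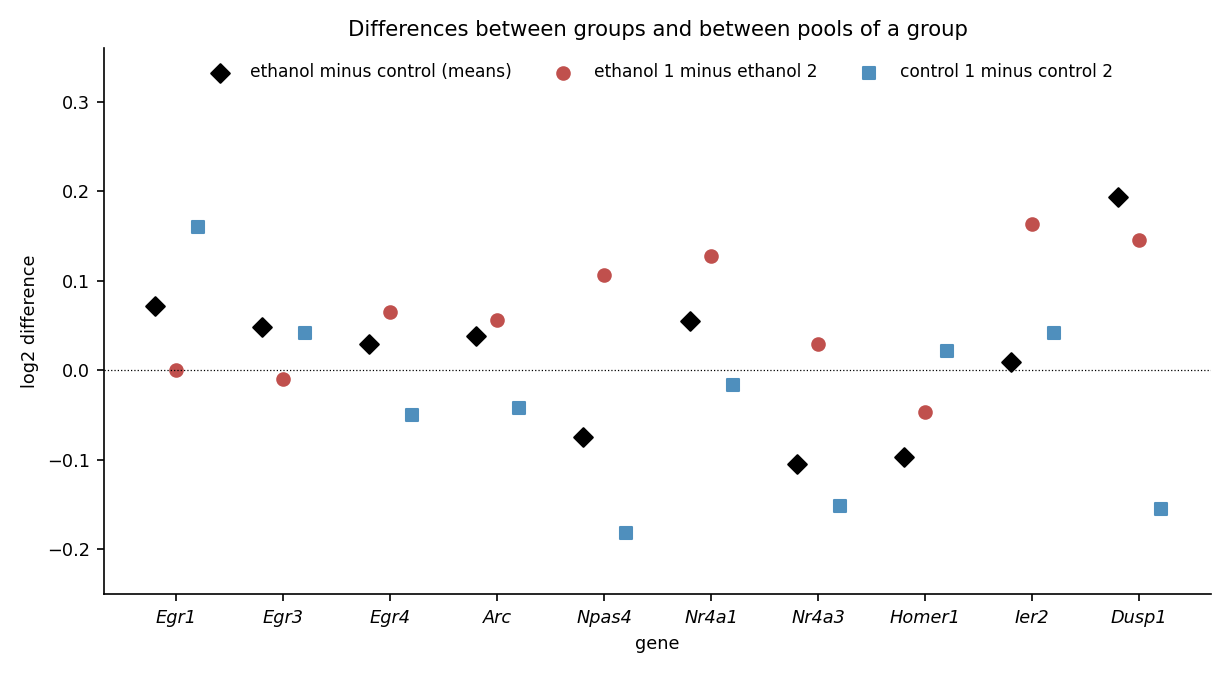
For each of the 10 genes, the log2 difference of the group means (ethanol minus control, black diamonds) beside the differences between the 2 ethanol pools (red circles) and the 2 control pools (blue squares). Only for Egr3, Homer1 and Dusp1 does the diamond lie farther from 0 than both other symbols.

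The rest of the activity response likewise held no gene past the test. Among the 7 AP-1 factors, which act beside the EGR genes, 5 had differences above 0 and 2 below (median 0.01), and 0 passed the adjusted test. The groups were apart for 4 of the 7 (57.1%, against 31.4% of all genes), higher for 2 and lower for 2. Their median was -0.01 without control 1 and 0.06 without ethanol 2. Fos, the most used activity marker, stood at 5.90 and 5.81 in ethanol pools, against 5.81 and 5.80 in control pools, below the lower quartile on every array, and its difference was 0.05 ± 0.07. Jun stood at 9.24 and 9.45 in ethanol pools, against 9.68 and 9.67 in control pools (difference -0.33 ± 0.09). Jund lay in the opposite direction, at 9.29 and 9.23 in ethanol pools against 9.00 and 9.07 in control pools (difference 0.23 ± 0.07). Both Jun and Jund had an unadjusted p under 0.05 and an adjusted p of 0.980 in limma. Fosb had a difference of 0.14 ± 0.11, Fosl2 of -0.11 ± 0.07, and Junb and Fosl1 of 0.01 each, with SEs of 0.07.

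Of 38 measured genes of the other rapid-response list, 18 were above 0 and 20 below (median -0.01), and 0 passed. The largest relative to their error were Klf10, a TGF-beta-induced repressor, at -0.28 ± 0.08, and the stress-responsive kinase Plk3 at 0.19 ± 0.07. Klf10 stood at 8.21 and 8.29 in ethanol pools against 8.60 and 8.46 in control pools, and Plk3 at 8.82 and 8.85 in ethanol pools against 8.63 and 8.65 in control pools, so neither pair of groups overlapped. Over the list, groups were apart for 13 of 38 genes (34.2%), against 31.4% of all genes. The median was 0.03 without control 1 and -0.004 without ethanol 2.

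Of 20 delayed response genes, whose products are mostly secreted or synaptic proteins, 12 were above 0 and 8 below (median 0.01), and 0 passed. The activin subunit Inhba was at 0.24 ± 0.12 and the opioid precursor Pdyn at 0.14 ± 0.07. Inhba stood at 9.09 and 8.83 in ethanol pools, against 8.61 and 8.83 in control pools, so that control 1 was low and control 2 stood level with ethanol 2. Control 1 was the lowest array for 70% of the list, against 32.5% of all genes, and it was also the lowest for 60% of the neuron markers; the part of neuron content in this was not tested. The groups were apart for 3 of the 20 (15%), against 31.4% of all genes. With control 1 left out the median of the list was -0.01, with ethanol 2 left out 0.05 and with control 2 left out 0.11. Bdnf, the neurotrophin gene that Npas4 and CREB act on, stood at 6.54 and 6.30 in ethanol pools, against 6.21 and 6.32 in control pools. The groups overlapped, with ethanol 1 above the other arrays, and Bdnf lay below the lower quartile on every array. Its difference was 0.16 ± 0.10, and it is given in addition to the naming rule.

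Upstream, 33 measured factors, kinases and channels had a median of -0.004 (15 above 0, 18 below), with 0 past the test. The groups were apart for 10 (30.3%), against 31.4% of all genes. The median of the upstream list was -0.03 both without control 1 and without ethanol 2. Crem, which encodes CRE-binding activators and repressors, stood at 7.99 and 8.01 in ethanol pools, against 8.34 and 8.21 in control pools, without overlap (difference -0.28 ± 0.07, unadjusted p = 0.0112, adjusted p = 0.980 in limma). The L-type calcium channel gene Cacna1d was at -0.17 ± 0.08. Creb1 and Srf, the factors that bind the CRE and the CArG box and are likewise given in addition to the rule, were at 0.003 ± 0.08 and 0.08 ± 0.08. Of 18 measured partners and targets of the 10 proteins, 9 were above 0 and 9 below (median -0.01). Their groups were apart for 2 (11.1%), against 31.4% of all genes. The median was 0.002 without control 1 and without ethanol 2. The kinase gene Mapk10 (JNK3), a target of Dusp1, was at 0.17 ± 0.07 and the scaffold gene Shank3, whose protein binds Homer, at -0.15 ± 0.07. None of the 18 passed.

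**Figure D5:**
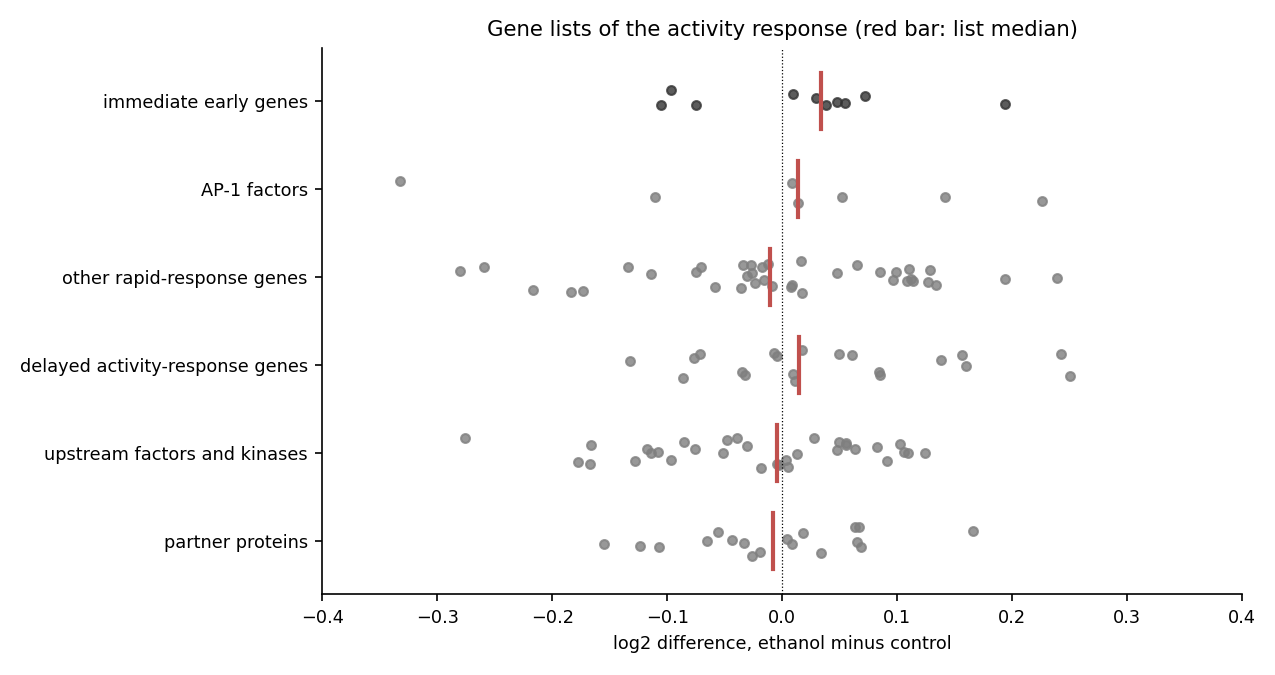
Log2 difference between ethanol and control means for each measured gene of 6 lists (dots, spread vertically for legibility) with the list median as a red bar. Every list median lies within 0.04 of 0, and Jun, at -0.33, is the outermost gene.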

How the data were processed

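The deposited table holds log2 brightness values, 1 per probe set and array, made by the authors with Partek 6.6 per the submitters' processing notes; the log base was inferred from the range of values, while how background, array scale and probes were handled is not given in the sources used. The table has 35556 probe sets, of which 21789 have 1 gene symbol, 1621 several and 12146 none in the platform annotation; symbols were updated by Entrez identifier (21698 matched), and the brightest probe set stood for a gene. The table has 0 columns from other samples.

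The 2 ethanol arrays were set against the 2 control arrays over all 19938 genes with limma 3.58.1 in R 4.3.3 (lmFit, eBayes without trend, two-sided, 2 residual and 5.65 total degrees of freedom) and Benjamini-Hochberg adjustment at 0.05; no gene passed, and 587 had an unadjusted p under 0.05. The 10 genes and the lists were chosen with earlier results of these data known, so lists are described by counts and medians. All 10 are named, and of each companion list the 2 genes with the largest difference relative to its error. Promoter windows are those of RefSeq (GRCm38.p6), searched on both strands, and for the 10 genes any window on chr18 was left out. Alternatives were other scalings, probe summaries, filters, variance models, a replicate block and leaving out each array. Each pool is 1 sample, and depth does not apply to arrays.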

Additional observations from a re-analysis of the deposited data

How the results depend on the processing

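The number of arrays, 2 per group, limits the precision, and 2 of the 10 genes (Egr4 and Ier2) lay below the lower quartile of every array. Under all alternatives 0 of the 10 genes passed. The count over all genes was 0 in each alternative except leaving out an array, where it ranged from 0 to 4. In the brighter genes, which hold 4 of the 10, the median of the set was -0.021. With an array left out, that median ranged from -0.0063 to 0.0643, the number of the 10 with groups apart from 6 to 8 (58.4% to 74.4% of all genes), and the median of the delayed response list from -0.014 to 0.113. After quantile normalization Egr4 turned to -0.0004 and Ier2 to -0.031. With an array left out, Egr1 ranged from -0.0079 to 0.153, Egr4 from -0.0031 to 0.062, Npas4 from -0.166 to 0.016, Nr4a1 from -0.0095 to 0.119 and Ier2 from -0.0722 to 0.0906; the cause was not tested. Nothing in the labels pairs arrays by replicate number, and arrays of one number deviated from their group means with a correlation of -0.484 across genes. With the replicate block the median of the set was 0.03, and 0 genes passed. With crossed pairing, chosen after the data were seen, 0 genes passed. At an unadjusted p under 0.05 in limma, the crossed pairing held 1463 genes and the replicate block 267, against 587 without a block. Of the 10 genes, 1 (Dusp1) was among them with crossed pairing and 0 with the replicate block.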
